A study of Mus musculus with 16 samples.

Results

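The mitochondrial ribosomal proteins were followed in mouse liver as the genes whose probe set carried a single annotated symbol beginning with Mrpl or Mrps. These were 77 of the 19938 genes measured, 48 of them Mrpl genes, named for the large subunit of the ribosome, and 29 Mrps genes, named for the small subunit. Where a gene had several probe sets, which held for 8 of the 77, the one with the highest mean over the 16 arrays was used. RefSeq lists 78 such protein-coding genes. The remaining one, Mrpl53, shared its probe set with another gene and was left out. No filter on low values was applied, so all 77 entered every comparison.

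The livers came from male mice aged 4 months, with 1 Affymetrix Mouse Gene 1.0 ST array per liver and 4 arrays in each of 4 groups. The controls were heterozygotes, Mut+/-;TgINS-MCK-Mut, taken unfasted or after 12 hours of fasting. The mutants were Mut-/-;TgINS-MCK-Mut, taken unfasted or after a fast of 8 to 12 hours. Mut, now named Mmut, encodes methylmalonyl-CoA mutase, a mitochondrial enzyme on the path by which propionate enters the citric acid cycle, and its loss causes methylmalonic acidemia. All 4 groups carried the TgINS-MCK-Mut transgene, whose MCK promoter, from muscle creatine kinase, drives the enzyme in muscle, so the mutants were models of an enzyme deficit outside muscle and no group was free of the transgene or had both Mut alleles intact. The length of the fast was not matched between genotypes, so in fasted mice the effects of genotype and of fasting time cannot be told apart.

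The mitochondrial ribosome translates the few messenger RNAs of the mitochondrial genome, all of which encode subunits of the respiratory chain and ATP synthase. Its ribosomal RNAs are made inside the organelle, but its proteins are encoded in the nucleus, made by cytosolic ribosomes and imported. Some of these proteins have counterparts in bacterial ribosomes and others are found only in mitochondria. Liver is rich in mitochondria, and changes in mitochondrial translation are studied as a source of stress signals to the nucleus, which gives the family its interest for a series whose title speaks of hormesis.

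Values are log2 RMA levels, differences are log2 differences ± standard error from a limma fit over all genes, and a gene is called where its Benjamini-Hochberg adjusted p over all genes was under 0.05. On these arrays 72 of the 77 genes lay in the brighter part of all genes, above the median of the genes' mean levels. The targeted gene, Mmut, was lower in mutants by -1.78 ± 0.11 unfasted (limma adjusted p = 7.5e-07) and by -1.80 ± 0.11 fasted (3.6e-07), with no overlap between genotypes. The 8 hepatocyte markers, Alb among them, had mean levels between 12.80 and 13.21 on every array and none was called between genotypes. One array stood apart: unfasted mutant replicate 1 had a mean level of 11.43 over 7 markers of pancreatic acinar cells, against 6.90 to 7.16 on the 15 others. It enters each comparison with unfasted mutants, and the counts of called members and the family medians it moved are given without it as well. Of the other markers, 8 of 10 macrophage genes rose in fasted mutants and 0 in unfasted ones, and 7 and 6 of 9 endothelial genes and 2 and 5 of 8 stellate genes rose. Among cholangiocyte markers 1 of 4 fell in fasted mutants, among lymphocyte markers 1 of 5 rose and 1 fell there, and among neutrophil markers 1 of 5 rose in unfasted mutants. The 6 endothelial calls of unfasted mutants were 6 without replicate 1, and the 5 stellate calls were 4. Mean macrophage levels ran from 8.72 to 9.21 in fasted heterozygotes and from 9.43 to 9.81 in fasted mutants. The part of these other cells in the differences below was not tested, and in whole liver fewer cells of a type and less RNA per cell cannot be told apart.

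In fasted liver, 7 of the 77 mitochondrial ribosomal protein genes rose in mutants over heterozygotes and none fell. The increases were small, from 0.26 to 0.42 log2 units. They came from both subunits: Mrpl17, Mrpl23, Mrpl50 and Mrpl52 from the large one and Mrps15, Mrps18b and Mrps30 by name from the small one, although Mrps30 sits in the large subunit in solved structures. The 7 were 9.1% of the members. Over all genes the same test called 8.62% higher and 5.01% lower, so the share of members that rose was close to that of all genes. In either direction it called 13.6% of all genes and 19.3% of the brighter genes, more than the 9.1% of members.

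Mrpl17, whose bacterial counterpart lies near the exit of the tunnel through which the new protein leaves, read 9.07, 9.02, 8.95 and 8.97 in fasted heterozygotes and 9.45, 9.54, 9.33 and 9.39 in fasted mutants. The groups did not overlap, and the difference was 0.42 ± 0.07 (limma adjusted p = 0.00184). Mrpl50, a mitochondria-specific protein of the large subunit, read 10.35, 10.41, 10.40 and 10.33 in fasted heterozygotes and 10.66, 10.96, 10.65 and 10.77 in fasted mutants. Here too every mutant array was higher, by 0.39 ± 0.08 on average (limma adjusted p = 0.00427). Mrpl23, another protein of the tunnel exit in bacterial ribosomes, was at 10.24, 10.20, 10.26 and 10.28 against 10.49, 10.64, 10.45 and 10.94. Its mutant arrays were all higher but spread widely, and the difference of 0.38 ± 0.12 was the last to pass (limma adjusted p = 0.0443). A second probe set of Mrpl23 differed by 0.39. Mrpl52, also specific to mitochondria, read 9.44, 9.25, 9.10 and 9.29 in fasted heterozygotes and 9.68, 9.64, 9.41 and 9.74 in fasted mutants. Its groups overlapped at 1 mutant array, and the difference was 0.34 ± 0.09 (limma adjusted p = 0.0201).

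Of the Mrps genes, Mrps18b, a mitochondria-specific member of the S18 family, read 10.29, 10.08, 10.14 and 10.16 in fasted heterozygotes against 10.46, 10.72, 10.53 and 10.54 in fasted mutants. The groups were apart, with a difference of 0.39 ± 0.10 (limma adjusted p = 0.0163). Mrps30, with no bacterial counterpart, read 7.28, 7.04, 7.01 and 7.13 against 7.30, 7.72, 7.42 and 7.69. The lowest mutant array was just above the highest heterozygous one, and the difference was 0.42 ± 0.11 (limma adjusted p = 0.0227). Mrps15, which has a bacterial counterpart in the small subunit, read 9.88, 9.85, 9.79 and 9.85 against 10.05, 10.02, 10.06 and 10.26. It differed by 0.26 ± 0.08 (limma adjusted p = 0.0397), with no overlap. The member next outside the threshold was Mrps26, with an adjusted p of 0.0536. In 9 members all fasted mutant arrays were above all fasted heterozygous ones, and in 0 all were below. Over all genes these shares were 12.8% and 11.0%. Calls of Mrpl17 and Mrpl50 held with any 1 of the 16 arrays left out, whereas the call of Mrpl23 was lost when any 1 of 9 arrays was left out and that of Mrps15 for any 1 of 8. The calls of Mrpl52, Mrps30 and Mrps18b were lost for 5, 4 and 2 arrays, fasted mutant replicate 2 and fasted heterozygous replicate 2 among them each time. With arrays centred on their median Mrpl23 and Mrps15 lost their calls, and after a second quantile normalization Mrpl52 and Mrps15 did. With arrays centred on cytosolic ribosomal protein genes, Mrpl17, Mrpl23, Mrpl50, Mrpl52, Mrps18b and Mrps30 lost theirs and the difference of Mrps15 turned negative. That centring shifted the median of all genes to -0.36. The count of 7 went down to 2 without fasted mutant replicate 2 or without fasted heterozygous replicate 2, and up to 11 without unfasted mutant replicate 1, which enters only through the shared spread.

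**Figure D1:**
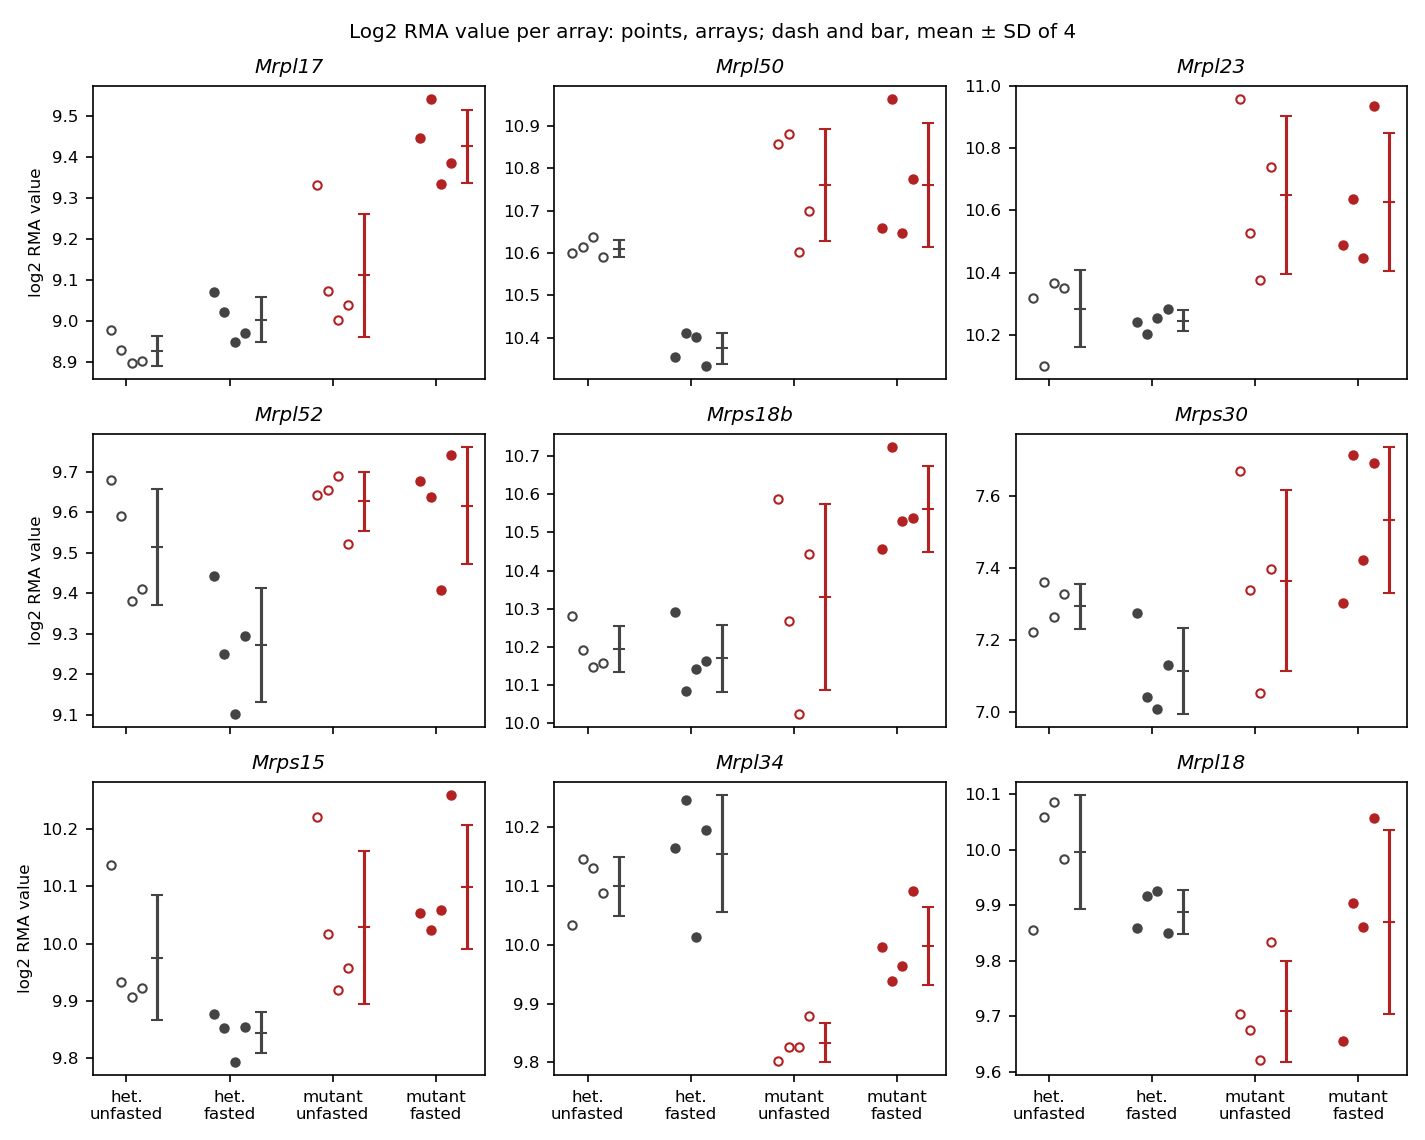
Log2 RMA level per array (vertical axis, a separate scale per panel) of 9 mitochondrial ribosomal protein genes called between genotypes in 1 feeding state, in heterozygous and mutant, unfasted and fasted liver. Points are arrays and the dash and bar give the mean ± SD of 4; Mrpl17 reads 9.33 to 9.54 in fasted mutants and 8.95 to 9.07 in fasted heterozygotes, and Mrpl34 is lowest in unfasted mutants.

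In unfasted liver the called members were others and went the other way. Mrpl34 and Mrpl18 fell in mutants and no member rose, 2.6% of the members in all, against 4.25% of all genes higher and 3.69% lower. Of the brighter genes 12.3% were called in either direction. Mrpl34, a small protein with a bacterial counterpart in the large subunit, read 10.03, 10.15, 10.13 and 10.09 in unfasted heterozygotes and 9.80, 9.83, 9.83 and 9.88 in unfasted mutants. The groups were clearly apart, and the difference was -0.27 ± 0.06 (limma adjusted p = 0.0135). Mrpl18, whose bacterial counterpart binds the small RNA of the large subunit, read 9.86, 10.06, 10.08 and 9.98 in unfasted heterozygotes against 9.70, 9.67, 9.62 and 9.83. All mutant arrays were lower, by -0.29 ± 0.08 on average (limma adjusted p = 0.0387). Next outside the threshold was Mrpl32, another large-subunit protein, with -0.31 ± 0.10 and an adjusted p of 0.0675. Its heterozygous arrays lay between 8.70 and 8.73 and its mutant arrays at 8.66, 8.51, 8.10 and 8.36. Over the members, unfasted mutant arrays were all higher in 4 genes and all lower in 6, against 6.16% and 5.83% of all genes. Of the arrays left out in turn, only unfasted heterozygous replicate 3 cost Mrpl34 its call (limma adjusted p = 0.0501), and the call of Mrpl18 was lost for any 1 of 9 arrays. Without unfasted mutant replicate 1, 4 members fell and none rose, 5.2% of members against 8.7% of all genes called.

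Neither of these fell in fasted mutants by the test. Mrpl34 differed by -0.16 ± 0.06 there (limma adjusted p = 0.0924) and Mrpl18 by -0.02 ± 0.08 (0.9). Conversely, of the 7 genes that rose in fasted mutants, Mrpl23 came nearest in the unfasted state, with 0.37 ± 0.12 (limma adjusted p = 0.0711) and unfasted mutant arrays at 10.96, 10.53, 10.38 and 10.74, all above the 10.10 to 10.37 of the heterozygotes. The interaction test, which asks whether the genotype difference changed with feeding, called no member, with limma at the same threshold. It called 0.01% of all genes. At an unadjusted p under 0.05 it held 11 of the 77 members, 10 of them higher, against 11.0% of all genes at that cut. The smallest adjusted p among the members was 0.397, for Mrps16, a small-subunit protein that went the other way from most with -0.26 ± 0.10. So the state in which a member was called does not show that its genotype effect differed between states. On simulated data the interaction test recovered 11.0% of genes changed by 0.3 log2 units and 62.0% of those changed by 0.5. In that setting effects of the size seen here were mostly below its reach. The simulation changed 200 of 19938 genes, with independent noise and the same spread in all groups. In the data members moved together on arrays and mutant groups were wider, so these shares are a rough guide.

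With both feeding states averaged, 8 members were higher in mutants and 1 lower, 11.7% of the members, against 12.3% and 8.68% of all genes. Of the brighter genes 30.0% were called in either direction. Mrpl23 differed by 0.37 ± 0.08 (limma adjusted p = 0.00489) and Mrpl17 by 0.30 ± 0.05 (0.000589). Mrpl50, Mrps18b, Mrps30 and Mrpl52 followed, joined by Mrpl19, a large-subunit protein at 0.25 ± 0.08 (limma adjusted p = 0.0416), and Mrps2, a small-subunit protein at 0.17 ± 0.05 (0.0190). Mrpl19 read 8.75, 9.08, 8.71 and 8.93 in fasted mutants, above the 8.40 to 8.60 of fasted heterozygotes, but its unfasted mutant arrays ran from 8.31 to 9.003 and overlapped the heterozygotes. Mrpl34 was the only member lower on average, by -0.21 ± 0.04 (limma adjusted p = 0.00229), and it kept its call with any 1 array left out. Calls of Mrpl19 and Mrps30 were each lost without any 1 of 11 arrays, and those of Mrpl19, Mrps30 and Mrps2 with arrays centred on their median and after a second quantile normalization.

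Fasting called few members in either genotype. In heterozygotes none passed, while limma called 1.57% of all genes. The smallest adjusted p was 0.0677, for Mrps27, a mitochondria-specific small-subunit protein that read 8.87, 8.86, 8.77 and 8.72 unfasted and 8.55, 8.50, 8.47 and 8.63 fasted. At an unadjusted p under 0.05 there were 4 members, all lower after the fast, 5.2% of members against 12.3% of all genes. In 7 members all fasted heterozygous arrays were lower and in 0 all were higher, against 5.11% and 5.35% of all genes. In mutants, Mrpl17 and Mrpl45 rose with fasting and none fell, against 2.33% of all genes higher and 1.02% lower. Mrpl17 read 9.33, 9.07, 9.002 and 9.04 unfasted, and with the fasted values above the lowest fasted and the highest unfasted array both lay at 9.33. The difference was 0.31 ± 0.07 (limma adjusted p = 0.0266). Mrpl45, a mitochondria-specific protein that tethers the ribosome to the inner membrane, read 8.88, 8.85, 8.53 and 8.73 unfasted and 8.91, 9.20, 9.19 and 9.12 fasted. It differed by 0.36 ± 0.09 (limma adjusted p = 0.0490), a call that was lost when any 1 of 13 arrays was left out. In 9 members all fasted mutant arrays were above all unfasted ones and in 1 below, against 5.49% and 4.54% of all genes. Unfasted mutant replicate 1 weighed on this comparison. Without it 12 members rose and none fell, 15.6% of members, while 9.7% of all genes were called, against 3.3% in the full fit. Without replicates 2, 3 or 4 of that group, or without fasted mutant replicate 2, no member passed. The shares of all genes called were then 1.4%, 2.6%, 1.7% and 1.1%.

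Averaged over genotypes, fasting raised Mrps26, Mrpl17 and Mrps10 and lowered Mrps27. Over all genes it called 4.20% higher and 2.34% lower. Mrps26, specific to mitochondria, differed by 0.23 ± 0.06 (limma adjusted p = 0.0446). Mrps10, with a bacterial counterpart, differed by 0.17 ± 0.05 (0.0394), and its fasted mutant arrays lay within 9.07 to 9.10 of each other against 8.77 to 8.998 unfasted. Mrps27 differed by -0.17 ± 0.05 (0.0461). The calls of Mrps10, Mrps26 and Mrps27 were each lost without any 1 of 12 arrays or more, and none of the 4 was called with arrays centred on their median. Without unfasted mutant replicate 1, 8 members were called in place of 4, 10.4% of members against 9.0% of all genes.

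No member reached 2-fold in any comparison, and no member's 95% confidence interval reached a difference of 1 log2 unit. These intervals reached a median of 0.18 log2 units to either side in the comparisons of 2 groups. Mrps5, a small-subunit protein whose loss is known to lengthen life in worms, differed between genotypes by 0.01 ± 0.08 unfasted and 0.16 ± 0.08 fasted. Its fasted heterozygous arrays read 9.95, 9.89, 10.16 and 10.03 and its fasted mutant arrays 10.00, 10.27, 10.23 and 10.15, which overlap. A second, less bright probe set of Mrps5 differed by -0.05 ± 0.08 unfasted and by more, 0.25 ± 0.08, fasted. Mrpl12 and Mrpl11, proteins of the stalk that recruits translation factors, differed by 0.08 ± 0.09 and 0.13 ± 0.09 in fasted liver and by -0.05 ± 0.09 and -0.11 ± 0.09 in unfasted liver. Mrps12, which lies at the decoding centre, was at -0.12 ± 0.07 and -0.16 ± 0.07. Mrps18a, like Mrps30 placed in the large subunit by structure, was at 0.02 ± 0.09 and -0.01 ± 0.09. None of these 5 passed in any of the 7 comparisons as fitted. Mrps12 was near the threshold averaged over feeding, at -0.14 ± 0.05 (limma adjusted p = 0.0648), and was called lower there under 5 alternatives, 2 of them the other scalings by median and quantile, and with either of 2 arrays left out. Mrpl11 was called higher with fasting in mutants, by 0.34, without unfasted mutant replicate 1 (limma adjusted p = 0.0314), and both were called lower in unfasted mutants with arrays centred on cytosolic ribosomal proteins, which lowers most genes. Mrpl47 had the highest interaction value of the family, 0.49 ± 0.21 (limma adjusted p = 0.428), and was chosen for mention after its values were seen because its probe sets disagree: the one used differed by 0.34 in fasted liver and the other by -0.02.

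**Figure D2:**
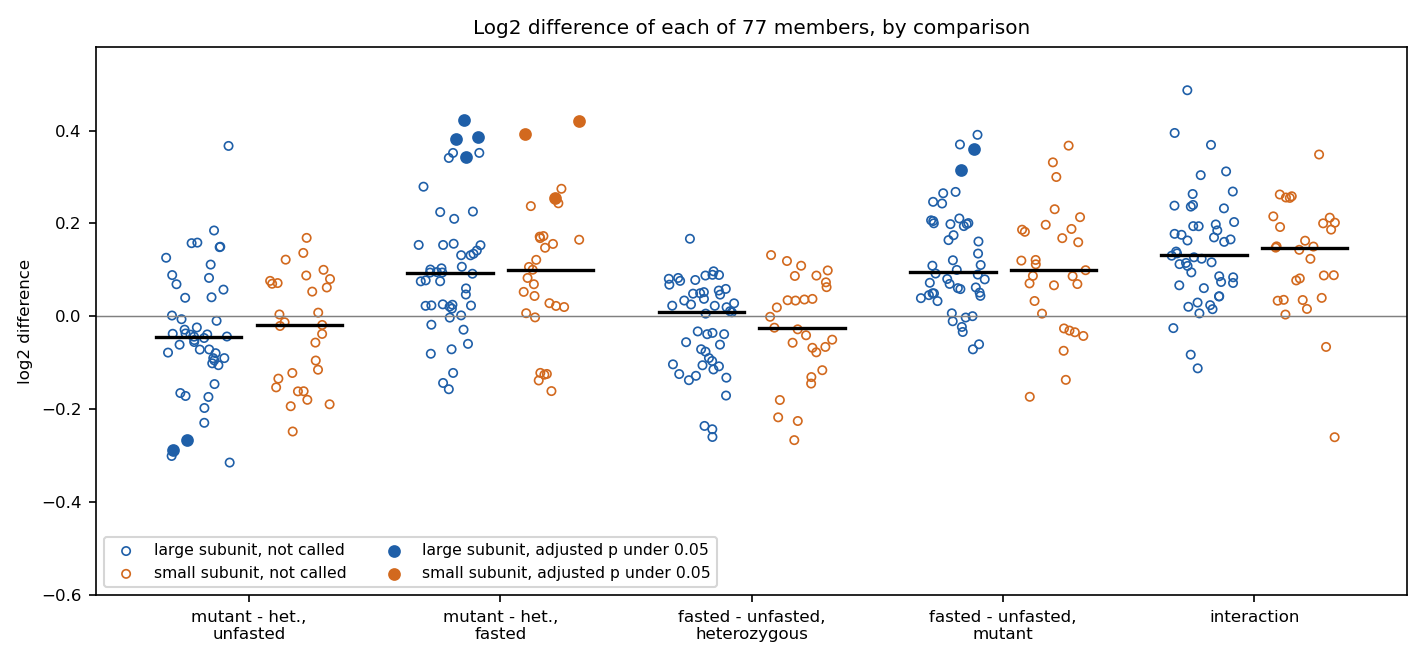
Log2 difference (vertical axis) of each of the 77 mitochondrial ribosomal protein genes in 5 comparisons (horizontal axis), 48 Mrpl genes in blue and 29 Mrps genes in orange. Filled circles passed limma at an adjusted p under 0.05 and black bars are medians. The subunits have medians of 0.09 and 0.10 for mutant minus heterozygous in fasted liver, and their interaction values lie mostly above 0. Centring on cytosolic ribosomal proteins turns the fasted genotype median of the members to -0.25 and that of all genes to -0.36.

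Although few genes passed singly, the members lay to one side in several comparisons. In fasted liver 62 of the 77 were higher in mutants, with a median difference of 0.09, and in mutants 64 were higher after fasting, with a median of 0.10. Over all genes the medians were -0.02 and -0.01. Over the brighter genes, to which most members belong, they were 0.05 and 0.05, with 59.5% and 62.6% of genes above 0 against 80.5% and 83.1% of members. In unfasted liver 28 members were higher in mutants, with a median of -0.04, and in heterozygotes 39 were higher after fasting, with a median of 0.01. The interaction value was above 0 in 72 of 77, 93.5%, with a median of 0.14. The share above 0 was 45.7% over all genes and 63.4% over the brighter genes. Single mutant arrays moved these medians. Without unfasted mutant replicate 1 the unfasted genotype median was -0.07, with 24 members above 0, the fasting median in mutants 0.15, with 67, and the interaction median 0.19, with 73. Without unfasted mutant replicate 3 they were 0.00, with 39, 0.05, with 57, and 0.09, with 64. Without fasted mutant replicate 4 the fasted genotype median was 0.05, with 54 above 0, and without fasted mutant replicate 1 the fasting median in mutants was 0.16, with 70. These counts describe the members and are no test, since genes on the same arrays are not independent of each other.

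The medians moved with scaling. A second quantile normalization brought the fasted genotype median to 0.02, with 44 members above 0, and the interaction median to 0.07, with 59 above 0. Centring arrays on cytosolic ribosomal protein genes turned the fasted genotype median to -0.25 and the fasting median in mutants to -0.08. That centring also shifted the median of all genes, to -0.36 and -0.20, so members still lay above it. The interaction median was 0.02 under it, with 44 above 0, while that of all genes was -0.13. The unfasted genotype median stayed below 0 under each scaling, at -0.26 to -0.04. The -0.26 came with cytosolic centring, under which the median of all genes was -0.22.

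The unfasted and fasted genotype comparisons share no array, and can be set side by side. Of the 77 members, 36 were lower in mutants when unfasted and higher when fasted, 46.8%, against 13.7% of all genes and 20.6% of the brighter genes. The pattern was not the family's alone: 8 of 16 mitochondrial translation factors had it, and 5 of 21 tRNA synthetases, 6 of 28 assembly factors and 0 of 33 large-subunit genes of the cytosolic ribosome. Another 26 were higher in both states, 13 lower in both, and 2 higher unfasted and lower fasted. The 36 were 25 Mrpl and 11 Mrps genes. Most of these differences are within the replicate error of single genes, and the count moved with the settings. It was 31 with arrays centred on their median, 20 after a second quantile normalization (of 77, against 2861 of all 19938 genes) and 8 with cytosolic centring (10.4%, against 2.3%). With 1 array left out it ran from 25, without unfasted mutant replicate 3, to 40, without unfasted mutant replicate 1.

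**Figure D3:**
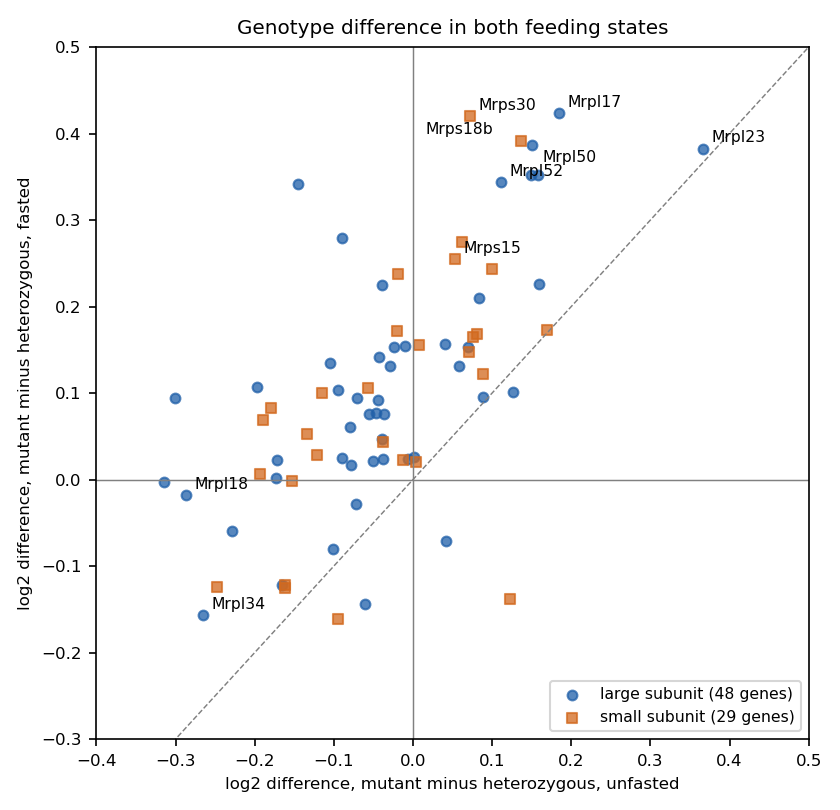
Log2 difference between mutant and heterozygous liver in the unfasted (horizontal axis) and fasted state (vertical axis) for each of 77 mitochondrial ribosomal protein genes, 48 Mrpl in blue and 29 Mrps in orange, with the called ones named. The dashed line marks equal differences; 36 genes lie in the upper left area, and most lie above the line.

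Seen array by array, the family's median varied more among mutants than among heterozygotes. For each array the median over the 77 members was taken of the level minus that gene's mean over the 16 arrays. The 8 heterozygous arrays stayed between -0.05 and 0.01. The unfasted mutants were at 0.10, -0.02, -0.18 and -0.07 in replicates 1 to 4, and the fasted mutants at -0.03, 0.14, 0.03 and 0.16. Unfasted mutant replicate 1, the array with acinar transcripts, was thus above 2 of the 4 fasted mutants, and the groups overlapped. On unfasted mutant replicate 3 only 6 of 77 members were above their own mean, on fasted mutant replicate 4 it was 72, and on the heterozygous arrays 21 to 41. The spread over all 8 mutant arrays was 0.34 log2 units and over all 8 heterozygous arrays 0.06. The median within-group SD of a member was 0.08 and 0.07 in unfasted and fasted heterozygotes and 0.13 in both mutant groups. Over the brighter genes it was 0.09 and 0.09 in heterozygotes and 0.14 and 0.11 in mutants, so the wider spread of unfasted mutants was shared with other bright genes. The widest members were Mrps28, with unfasted mutant arrays at 9.22, 8.61, 8.16 and 8.28 (SD 0.48), and Mrpl1 in fasted mutants (SD 0.28), both named after their values were seen.

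**Figure D4:**
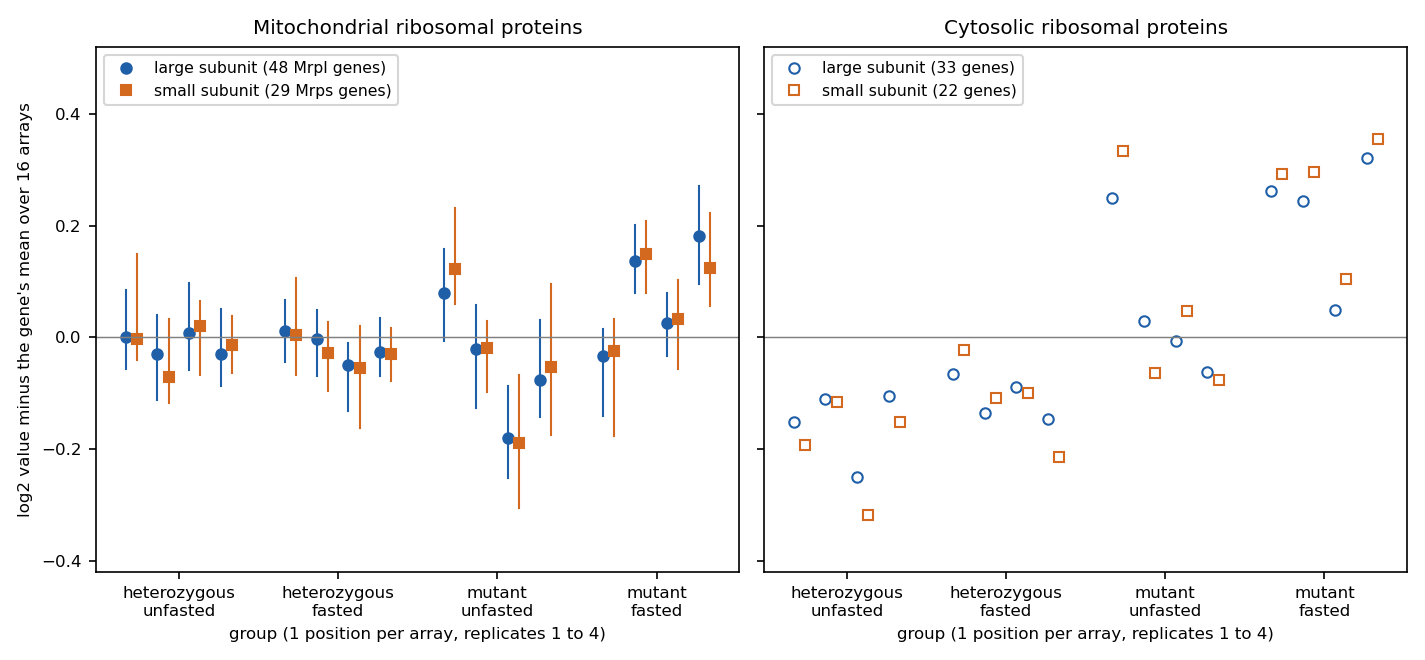
For each array (1 position, in 4 groups along the horizontal axis), the median over genes of the log2 level minus the gene's mean over 16 arrays (vertical axis), for mitochondrial ribosomal proteins with the range from the lower to the upper quartile (left) and for cytosolic ribosomal proteins (right). Large (blue) and small subunit (orange) lie together on each array; mitochondrial medians run from -0.18 to 0.16 over the mutants and from -0.05 to 0.01 over the heterozygotes for both subunits joined, and cytosolic medians are mostly higher in mutants.

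The large and small subunits did not separate. Their median genotype differences were -0.04 and -0.02 unfasted and 0.09 and 0.10 fasted, and their median fasting differences were 0.01 and -0.02 in heterozygotes and 0.10 and 0.10 in mutants. The interaction medians were 0.13 and 0.15, with 45 of 48 and 27 of 29 genes above 0. On single arrays the large-subunit median minus the small-subunit median was between -0.04 and 0.06. With Mrps18a and Mrps30 moved to the large subunit and Mrps36, which is not a ribosome component in solved structures, left out, the 50 large and 26 small genes gave 0.09 and 0.09 in fasted liver. The 46 proteins with a bacterial counterpart and the 30 mitochondria-specific ones had fasted medians of 0.08 and 0.13, with 3 and 4 genes called, and unfasted medians of -0.05 and -0.03, with 2 and 0 called. The fasted calls were all higher and the unfasted ones all lower, where 8.62% and 3.69% of all genes were called. No difference between subunits or classes was tested.

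Cytosolic ribosomal proteins gave a different picture. Of 33 measured large-subunit genes 22 rose in fasted mutants, and of 22 small-subunit genes 18, with medians of 0.32 and 0.37 and none lower. In unfasted mutants 4 and 6 rose, with medians of 0.19 and 0.25, but without unfasted mutant replicate 1 only 0 and 1 did. The fasted counts were 19 and 17 with arrays centred on their median and 24 and 17 after a second quantile normalization, while centring on these genes themselves removes the difference by construction. Rpl12 rose by 0.62 ± 0.15 (limma adjusted p = 0.0137) and Rps12 by 0.75 ± 0.15 (0.00502) in fasted mutants, more than any mitochondrial ribosomal protein. Most cytosolic interaction values were above 0 as well, in 30 of 33 and 21 of 22 genes, as in 15 of 16 mitochondrial translation factors and 20 of 21 tRNA synthetases, so the lean of the interaction was not seen in the mitochondrial ribosomal proteins alone. On the array where mitochondrial members were lowest, unfasted mutant replicate 3, the cytosolic medians were -0.01 and 0.05.

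Genes that work with the mitochondrial ribosome are read against the same background, 8.62% of all genes higher in fasted and 4.25% in unfasted mutants. The ribosome proteins with other names, Dap3, Chchd1, Ptcd3 and Gadd45gip1, were not called in any comparison. In fasted liver Ptcd3 differed by 0.32 ± 0.17 and Dap3 by -0.07 ± 0.12. Of 16 translation factors none was called between genotypes in either state. Mtrf1, a release factor family member, rose in mutants with fasting by 0.42 ± 0.09 (limma adjusted p = 0.0237). Of 28 assembly factors 3 rose in fasted mutants and none fell, a share close to the background. Mettl15, a methyltransferase of the small-subunit ribosomal RNA, rose by 0.56 ± 0.10 (limma adjusted p = 0.00241) fasted and 0.42 ± 0.10 (0.0161) unfasted, the latter 0.38 ± 0.11 (0.0382) without unfasted mutant replicate 1. It read 7.74, 7.57, 7.79 and 7.64 in unfasted heterozygotes and 8.25, 8.07, 7.98 and 8.15 in unfasted mutants, with no overlap. Fastkd2 and Gtpbp10, which act in assembly of the large subunit, rose by 0.42 ± 0.13 (limma adjusted p = 0.0433) and 0.35 ± 0.11 (0.0464) in fasted mutants. In heterozygotes Nsun4, a ribosomal RNA methyltransferase, fell with fasting by -0.32 ± 0.07 (limma adjusted p = 0.0319), and in mutants Mtg1, a GTPase of assembly, rose by 0.44 ± 0.11 (0.0415).

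Of 15 genes for mitochondrial transcription and biogenesis 3 rose in fasted mutants. Myc, a transcription factor of growth and ribosome genes, differed most, by 2.02 ± 0.40 (limma adjusted p = 0.00494). It read 7.52, 7.62, 8.44 and 8.56 in fasted heterozygotes and 10.59, 9.94, 9.68 and 9.99 in fasted mutants, with no overlap, but unfasted heterozygotes spread from 6.84 to 9.41. Ppargc1a, a coactivator of mitochondrial biogenesis, read 9.02, 9.40, 9.70 and 8.89 in fasted heterozygotes and 10.99, 10.24, 10.14 and 9.58 in fasted mutants, which overlap. It rose by 0.98 ± 0.26 (limma adjusted p = 0.0227), and with fasting in mutants by 1.33 ± 0.26 (0.0154). Gabpb1, a subunit of an ETS-family factor of nuclear genes for mitochondria, rose by 0.34 ± 0.08 (limma adjusted p = 0.0102). Fasted mutant replicate 1, highest for Ppargc1a at 10.99, had a family median of -0.03, the lowest of its group. That array was picked after its values were seen, and a relation between Ppargc1a and the family over the arrays was not tested. Of 21 mitochondrial tRNA synthetases 3 rose in fasted mutants, 2 of which, Gars and Kars, also serve the cytosol. Tars2, the mitochondrial threonyl enzyme, rose by 0.29 ± 0.07 (limma adjusted p = 0.0158). Of 14 genes of mitochondrial protein quality control 5 rose in fasted and 3 in unfasted mutants. Hspa9, the main chaperone of protein import, rose by 0.51 ± 0.09 (limma adjusted p = 0.00252) and 0.39 ± 0.09 (0.0155), the latter 0.31 ± 0.08 (0.0347) without unfasted mutant replicate 1. Genes of the mitochondrial genome were not analysed here.

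The promoters of the family were read from RefSeq, build GRCm38.p6, as windows from 250 bases before to 50 bases after each start. Windows were found for 68 of the 77 members, 14 of the 15 called in any comparison among them. Motifs were searched on both strands. The core of the site of NRF1, a regulator of nuclear genes for mitochondria, spelled GCATGCGC, was found in 11.8% of the members and in 3.0% of all 27025 genes with a window. The core of ETS-family sites, CCGGAAG, was in 36.8% against 9.9%, its longer form CCGGAAGT, which contains that core, in 17.6% against 4.3%, and the YY1 motif AAGATGGC in 17.6% against 3.2%. The SP1 motif GGGGCGGG was in 29.4% against 18.4%, the E-box CACGTG in 7.4% against 8.1% and CCAAT in 38.2% against 41.1%. Median GC content was 58.5% in the members' windows and 52.7% over all, which bears on matches of GC-rich motifs. Cytosolic ribosomal protein genes had the ETS core in 41.4% and the NRF1 core in 5.2%. Among members the NRF1 core was in 16.7% of the Mrpl and 3.8% of the Mrps genes. A match is a run of letters and not a bound site, and no binding was measured.

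Of the 14 called members with a window, 5 had an NRF1 or ETS core in the 150 bases before the start, and these bases are shown because they set members that rose beside members that fell. They are printed on the strand of the gene, with the matched core in capitals: the NRF1 core, as its reverse complement, in Mrpl17, and the ETS core in the others, as its reverse complement except in Mrpl34.
Mrpl17: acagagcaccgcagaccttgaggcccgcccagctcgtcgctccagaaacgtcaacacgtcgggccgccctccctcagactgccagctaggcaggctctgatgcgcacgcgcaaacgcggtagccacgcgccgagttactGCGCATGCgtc
Mrpl34: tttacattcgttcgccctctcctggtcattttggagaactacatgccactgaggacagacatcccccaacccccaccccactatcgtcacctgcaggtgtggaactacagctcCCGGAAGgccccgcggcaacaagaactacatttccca
Mrpl52: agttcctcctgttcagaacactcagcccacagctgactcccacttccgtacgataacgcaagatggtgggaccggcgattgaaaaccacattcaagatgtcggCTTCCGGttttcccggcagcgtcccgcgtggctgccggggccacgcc
Mrps26: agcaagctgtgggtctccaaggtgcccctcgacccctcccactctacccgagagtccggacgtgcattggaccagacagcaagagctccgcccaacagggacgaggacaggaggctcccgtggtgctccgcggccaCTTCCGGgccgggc
Mrps27: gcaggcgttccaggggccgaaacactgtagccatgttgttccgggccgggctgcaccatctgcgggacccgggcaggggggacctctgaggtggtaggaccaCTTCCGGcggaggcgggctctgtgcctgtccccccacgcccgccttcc
The stretches are chr7:105811088-105811237 on the minus strand for Mrpl17, and on the plus strand chr8:71464776-71464925 for Mrpl34, chr14:54426759-54426908 for Mrpl52, chr2:130563607-130563756 for Mrps26 and chr13:99344636-99344785 for Mrps27. The core of Mrpl17 spans bases -11 to -4 from its start, and that of Mrpl34 bases -37 to -31. Of these genes Mrpl17 and Mrpl52 rose in fasted mutants, Mrpl34 fell in unfasted mutants, and Mrps26 rose and Mrps27 fell with fasting averaged over genotypes, so the ETS core stood before members called in both directions.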

How the data were processed

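Livers of 16 mice were profiled on 16 arrays, in 4 groups of 4 by genotype and feeding, which the labels describe as separate mice. Labelling started from 300 ng of total RNA, per the labels' protocols. The deposited log2 values were made by the authors with Affymetrix Expression Console and RMA, per the submitters' processing notes. RMA includes a background correction, a quantile normalization and a summary over probes, so a shift shared by most genes is removed before deposit. The sources used here give no version, library file or genome build, and the log2 scale was taken from the range of 3.80 to 14.33. Array medians lay between 7.33 and 7.40, and arrays of 1 group correlated at 0.985 to 0.996. The table has no detection calls.

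Of 35556 probe sets, 21789 had 1 gene symbol in the platform annotation, 1621 had several and 12146 none. Those with several or none were left out. By gene number 21698 matched a RefSeq table (GRCm38.p6), and 91 kept the annotated symbol. The probe set with the highest mean stood for each of 19938 genes.

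limma 3.58.1 in R 4.3.3 fitted 1 mean per group to all 16 arrays, with eBayes and an intensity trend. Tests were two-sided and adjusted by Benjamini-Hochberg over all genes in each of 7 comparisons, at 0.05. The averaged comparisons and the pairwise ones share arrays. The precision is limited by the number of arrays. The simulated data changed 200 of 19938 genes, with independent noise and the same spread in all groups. There, 43.0% of genes changed by 0.3 log2 units were recovered in the unfasted genotype comparison and 48.5% in the fasted one. Of those changed by 0.5, 77.0% and 84.5% were recovered. Replicate numbers were not used to pair the arrays. Over 24 same-numbered pairs, correlations of deviations from group means ran from -0.12 to 0.252, with a median of 0.066. The median was -0.032 for pairs with different numbers.

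Members and gene lists were chosen with earlier results of these data known. The genes eligible to be named in each comparison were, in each direction, the 6 called members that differed most, Mrps5, Mrpl12, Mrps12, Mrpl11, Mrps18a and Mrps30, the members nearest the threshold, Mmut, up to 3 called genes of each other list and all ribosome proteins with other symbols. Not all of these are described. The alternatives were a replicate block, array weights, 3 other scalings, no trend, robust moderation, the mean of probe sets, only bright genes, only the arrays compared, a threshold of 0.01, a 2-fold minimum, the subunit by structure and leaving out each array. Promoter sequences are RefSeq's, build GRCm38.p6.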

Additional observations from a re-analysis of the deposited data

Results flagged for a closer look

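Among 88 values checked, those of 20 members, of the family's median and of the subunit difference in each of 4 groups, 4 had 1 array far from the other 3, and chance alone marks about 1 in 20 such groups. Mrpl23 read 10.10 in unfasted heterozygous replicate 2, with the other 3 arrays at 10.32 to 10.37. Mrps15 read 10.14 in unfasted heterozygous replicate 1, with the others at 9.91 to 9.93, and 10.26 in fasted mutant replicate 4, with the others at 10.02 to 10.06. The large-subunit median minus the small-subunit median was 0.0585 in fasted mutant replicate 4 and -0.01 in each of the other fasted mutants. That array also had the highest family median, 0.16.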

How the results depend on the processing

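Many single calls in this family sit near the threshold, and their number moved with a part of the choices. Those of Mrpl17 and Mrpl50 in fasted liver (limma adjusted p = 0.00184 and 0.00427) held with any 1 array left out. Both were lost with arrays centred on cytosolic ribosomal proteins, which lowers most genes. Counts of called members were, for mutant minus heterozygous unfasted (2 as reported), 4 after a second quantile normalization (5.2%, against 8.6% of all genes). They were 4 among bright genes (5.6%, against 15.8% of those genes) and 1 in a fit of only the arrays compared (1.3%, against 3.8%). With arrays centred on cytosolic ribosomal proteins they were 36, all lower (46.8% against 32.0% of all genes). Fasted (7), they were 16 with array weights (20.8%, against 19.3% of all genes) and 43, all lower, with that centring (55.8% against 76.0%). Averaged over feeding (9), they were 14 with array weights, 14 after quantile normalization (5 higher, 9 lower) and 59, all lower, with that centring (18.2%, 18.2% and 76.6%, against 24.0%, 23.1% and 82.8%). For fasting in heterozygotes (0) they were 2 with array weights (2.6%, against 5.2% of all genes) and 3 in a fit of only the arrays compared (3.9%, against 2.8%). They were 1 each after quantile normalization (1.3%, against 1.8%), without the trend (1.3%, against 1.6%) and among bright genes (1.4%, against 4.0% of those genes). For fasting in mutants (2) they were 4 without the trend (5.2%, against 4.2% of all genes) and among bright genes (5.6%, against 8.7% of those genes). They were 1 with median-centred arrays (1.3%, against 3.1%) and after quantile normalization (1.3%, against 2.5%). With cytosolic centring and in a fit of only the arrays compared they were 0, against 3.0% and 0.2% of all genes. Averaged over genotypes (4), they were 10 with array weights and 0 with median-centred arrays, against 10.1% and 6.2% of all genes. At 0.01 the counts were 0 unfasted, 2 fasted, 4 averaged over feeding and 0 for fasting in mutants or on average, and at 2-fold all were 0. Over all genes the shares at 0.01 were 2.3%, 5.0%, 11.1%, 0.4% and 2.1% in that order, and at 2-fold at most 0.9%. Leaving out 1 array gave 0 to 4 unfasted and 2 to 11 fasted. For fasting in heterozygotes and mutants it gave 0 to 1 and 0 to 12. It gave 0 to 0 for the interaction, and 7 to 13 and 0 to 8 for the averages over feeding and genotypes. At the highest counts the shares of all genes called were 8.7% unfasted and 15.9% fasted. They were 1.7% and 9.7% for fasting in heterozygotes and mutants, and 20.5% and 9.0% for the averages. At the lowest counts they were 3.5% unfasted, and 7.9% and 9.2% fasted. They were 1.1% to 2.6% there for fasting in mutants, and 16.8% to 17.9% and 4.6% to 4.7% for the averages. Cytosolic centring turned Mrps15 fasted to -0.086 and, averaged over feeding, Mrpl19 to -0.026, Mrpl50 to -0.013, Mrpl52 to -0.053, Mrps18b to -0.017, Mrps2 to -0.11 and Mrps30 to -0.035, by lowering all genes. The large minus small median difference among bright genes was 0.025 fasted, 0.0097 for fasting in heterozygotes and 0.012 for the interaction, and -0.0018 for fasting in heterozygotes by structure. With 1 array left out it ran from -0.0556 to -0.0067 unfasted, -0.0361 to 0.0075 fasted, -0.0073 to 0.0344 and -0.0346 to 0.0238 for fasting in heterozygotes and mutants, -0.053 to 0.0223 for the interaction, and -0.01 to 0.02 and -0.03 to 0.01 for the averages. Over all genes, median-centred arrays gave 643 higher and 1233 lower calls unfasted in place of 848 and 736, 1510 and 1973 fasted in place of 1718 and 998, and 2016 and 3844 in place of 2445 and 1731 averaged over feeding. A block on replicate number, which does not pair the arrays (9 of 24 correlations over 0.1), gave 2, 8, 0, 3, 0, 10 and 4 called members in the 7 comparisons; in the last, Mrps27 lost its call (limma adjusted p = 0.0517). The alternatives for the count of members lower unfasted and higher fasted were chosen after seeing the data. Other causes of these moves were not tested.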

Other observations

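The cytosolic and mitochondrial families of nuclear genes for translation shared part, but not all, of their order over the mutant arrays. On the 8 mutant arrays the median of the 33 cytosolic large-subunit genes, relative to each gene's mean, was 0.25, 0.03, -0.01 and -0.06 unfasted and 0.26, 0.24, 0.05 and 0.32 fasted. The mitochondrial family's medians on the same arrays were 0.10, -0.02, -0.18 and -0.07, and -0.03, 0.14, 0.03 and 0.16. By both medians fasted mutant replicate 4 was the highest of these arrays and unfasted mutant replicates 3 and 4 were the lowest. The cytosolic small-subunit genes were highest on fasted mutant replicate 4 too, at 0.35. They were lowest on unfasted mutant replicates 4 and 2, at -0.08 and -0.06, while replicate 3 was at 0.05. On fasted mutant replicate 1, however, the cytosolic large-subunit value was among the highest and the mitochondrial one was below 0. These values are given without a test.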
